A study of Mus musculus with 42 samples.

Results

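The genes described here encode the acid hydrolases of the lysosome, their cofactors and membrane proteins, and the vacuolar proton pump (V-ATPase) that acidifies the lysosome. They were taken from a list of 43 gene symbols, and each symbol matched 1 of the 37310 gene identifiers in the count table. The 43 genes comprised 16 genes of the V-ATPase (6 of the membrane sector V0, 8 of the cytosolic sector V1 and 2 accessory proteins), 20 hydrolases (11 proteases, 7 glycosidases and 2 lipid hydrolases), prosaposin and progranulin, and 5 lysosomal membrane proteins. RNA was sequenced from bone-marrow-derived macrophages (BMDM) of male mice that carried floxed alleles of Irf5 and a Cre recombinase driven from the Lyz2 (LysM) locus, labelled KO, and of wild-type mice, labelled WT. Control cells were collected at 0, 2 and 24 h, and cells treated with bacterial lipopolysaccharide (LPS) or with palmitate, a saturated fatty acid, were collected at 2 and 24 h. This gave 14 groups of 3 libraries, 42 in all. LysM-Cre acts in myeloid cells, so that the deletion was meant for the macrophages and their relatives. The comparisons asked how the 2 stimuli, the time in culture and the genotype changed the lysosomal transcript levels.

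Lysosomes receive cargo from endocytosis, phagocytosis and autophagy, and macrophages are among the cells richest in them. The V-ATPase couples ATP hydrolysis by V1 to proton transport through V0, and the resulting acid pH activates cathepsins, glycosidases and lipases. Many of these genes share a short promoter element bound by the transcription factors TFEB, TFE3 and MITF, built on the letters CACGTG.

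To show that element, promoter sequences from the RefSeq promoter table (build GRCm38.p6, 250 bases before to 50 bases after each transcription start) were searched for CACGTG, which reads the same on both strands. Of the 43 genes, 36 had a promoter in the table, and the motif was present for 13 of them (36.1%) against 8.09% of the 27025 genes in that table. TCACGTG or its reverse complement, which contains the shorter motif, was present for 12 (33.3% against 4.29%), and the palindrome TCACGTGA, which contains both, for 7 (19.4% against 1.12%). The stretches below lie before the first annotated base of the gene, are written 5′ to 3′ on the strand of the gene, and have CACGTG in capitals. They are shown for genes that took different courses after LPS, namely Ctsd, which was lower at 24 h, Lamp1, which was slightly higher, and Atp6v0b, Gla and Mcoln1, which passed the test in neither genotype.
Ctsd, chr7:142388040-142388077, minus strand: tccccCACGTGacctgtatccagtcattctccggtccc
Lamp1, chr8:13159073-13159132, plus strand: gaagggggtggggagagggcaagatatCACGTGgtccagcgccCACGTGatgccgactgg
Atp6v0b, chr4:117887334-117887392, minus strand: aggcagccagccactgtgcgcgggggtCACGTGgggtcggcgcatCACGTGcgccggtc
Gla, chrX:134601200-134601255, minus strand: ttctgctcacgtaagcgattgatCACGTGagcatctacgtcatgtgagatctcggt
Mcoln1, chr8:3500421-3500456, plus strand: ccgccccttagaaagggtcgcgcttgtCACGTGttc
The motif was present in 2 of the 8 promoters of genes higher after 24 h of LPS in both genotypes, in 2 of the 10 promoters of genes lower in both, and in 9 of the 18 promoters of the other genes. These are matches of letters and do not show binding. A gene was counted if any of its promoters matched, and the shares over all genes were not matched for base composition, expression or number of promoters. Ctsb, Ctsh, Atp6v0d2, Atp6v1b2, Atp6v1c1, Atp6v1g1 and Atp6v1h had no entry.

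Each library held between 2848793 and 7743442 counts (median 5625399), and 3 counts in a library corresponded to 0.387 to 1.05 CPM (CPM being counts scaled to a common library total), a figure that covers counting error only. All CPM values of genes were also scaled by the trimmed mean of M values (TMM), and gene positions are those of the GRCm38 annotation. Of the genes in the table, 11624 passed a filter on low counts, including all 43 lysosomal genes. Replicate libraries are named 1 to 3 by the order of their columns, which only names them, and nothing in the labels ties them to separate animals, so that p-values measure the spread between these libraries. In whole-gene counts the targeted gene did not follow the genotype label, since Irf5 was not lower in any KO group: at 0 h it was at 209.5, 230.3 and 222 CPM in WT and 307, 279 and 328 CPM in KO. The log2 fold changes of Irf5 over the 7 group comparisons ran from 0.04 to 0.47. Whole-gene counts cannot by themselves show whether the floxed exons were lost, and exon-level counts were not analysed here. Lyz2, the site of the Cre, was lower in the libraries labelled KO in all 7 group comparisons, with log2 fold changes from -1.11 to -0.51. WT and KO are used below as the labels of the libraries. The 7 macrophage markers summed to 9650 CPM or more in every library. Markers of T or NK cells (4 genes, at most 2.15 CPM) and of erythroid cells (5 genes, at most 0.519 CPM) were at or near 0, and 4 markers each of B cells and dendritic cells summed to at most 12.99 and 8.69 CPM. The 5 fibroblast markers reached 306 CPM and were uneven within several groups. In KO they summed to 39.5 to 133 CPM at Control 24 h, 0.560 to 175 CPM at LPS 24 h and 0.777 to 306 CPM at palmitate 2 h. In WT Control 2 h the range was 1.16 to 58.7 CPM. The part of fibroblasts in the results below was not tested. Library 1 of KO at LPS 2 h stood furthest from its group (mean Pearson r 0.972 across genes, against a median of 0.987 over all libraries), and the named calls that were lost without it are given below. It also held the fewest counts of any library (2848793), and the part of depth in its distance was not tested.

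The 43 genes together made up 3.79% to 5.52% of all counts in a library. Ctsb, Ctsd, Psap and Ctss held 2.19% to 3.76% on their own. The share was highest in WT at Control 0 h (5.28% to 5.52%) and lowest at LPS 24 h, where it was 3.79% to 3.93% in WT and 3.86% to 3.95% in KO. Per kilobase of annotated exon, averaged over all 42 libraries, 10 of the 43 genes stood among the 100 highest genes of the table. Ctsd, the main aspartic protease of the lysosome, ranked 9th (5881 to 11472 CPM across libraries). Psap, the precursor of the saposins that help glycolipid breakdown, ranked 12th, Ctss, a cysteine protease of antigen processing, 14th, and Ctsb, an abundant cysteine protease, 19th. Lamp1, Ctsz, Grn, Lgmn, Laptm5 and Hexa followed. Hexa left that group when the longest transcript was used as the length, leaving 9. At the other end, Ctsk, the cathepsin best known from osteoclasts, ranked 6635th and lay between 2.30 and 15.7 CPM. Mcoln1, a calcium channel of the lysosome, lay between 38.7 and 57.4 CPM. Within the V-ATPase the V1 genes Atp6v1a (398 to 706 CPM) and Atp6v1b2 (334 to 683 CPM), which encode the subunits of the catalytic ring, had the most reads, and Atp6v1g1, a stalk subunit (117 to 182 CPM), was highest per kilobase of exon (rank 222). With the longest transcript as the length, Atp6v1b2 (rank 209) and Atp6v1a (rank 304) stood above Atp6v1g1 (rank 329).

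Over all 42 libraries the remaining V-ATPase genes lay in a middle range. The V0 genes were Atp6v0a1 (100.0 to 342 CPM), Atp6v0b (85.0 to 122 CPM), Atp6v0c (133 to 226 CPM), Atp6v0d1 (109 to 144 CPM), Atp6v0d2 (3.67 to 194 CPM) and Atp6v0e (79.7 to 117 CPM), with the widest range, relative to its level, for Atp6v0d2. The V1 genes were Atp6v1c1 (123 to 195 CPM), Atp6v1d (110.0 to 146 CPM), Atp6v1e1 (148 to 246 CPM), Atp6v1f (36.8 to 87.4 CPM) and Atp6v1h (74.1 to 107 CPM), and the accessory genes, which assist assembly and sorting of the pump, were Atp6ap1 (177 to 229 CPM) and Atp6ap2 (88.3 to 135 CPM). Of the proteases, Ctsb (6653 to 12134 CPM), Ctss (2654 to 4459 CPM), Lgmn (812 to 1436 CPM), Ctsz (643 to 2053 CPM), Ctsl (576 to 953 CPM) and Ctsa (643 to 835 CPM) stood above Ctsc (114 to 868 CPM), Ctsh (193 to 339 CPM) and Tpp1 (165 to 319 CPM) in their lowest libraries. The glycosidases were Man2b1 (461 to 765 CPM), Hexa (370.1 to 734 CPM), Gusb (251 to 408 CPM), Gla (153 to 193 CPM), Gaa (131 to 206 CPM), Neu1 (79.1 to 127 CPM) and Glb1 (59.9 to 95.01 CPM), and the lipid hydrolases Lipa (603 to 1493 CPM) and Ppt1 (104 to 143 CPM). Psap ranged over 5332 to 12223 CPM and Grn over 1427 to 2562 CPM, and the membrane proteins were Lamp1 (1653 to 2226 CPM), Laptm5 (886 to 1241 CPM), Lamp2 (328 to 457 CPM) and Scarb2 (186 to 333 CPM). Reads per gene rise with transcript length, so these CPM ranges rank the genes only by reads.

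**Figure D1:**
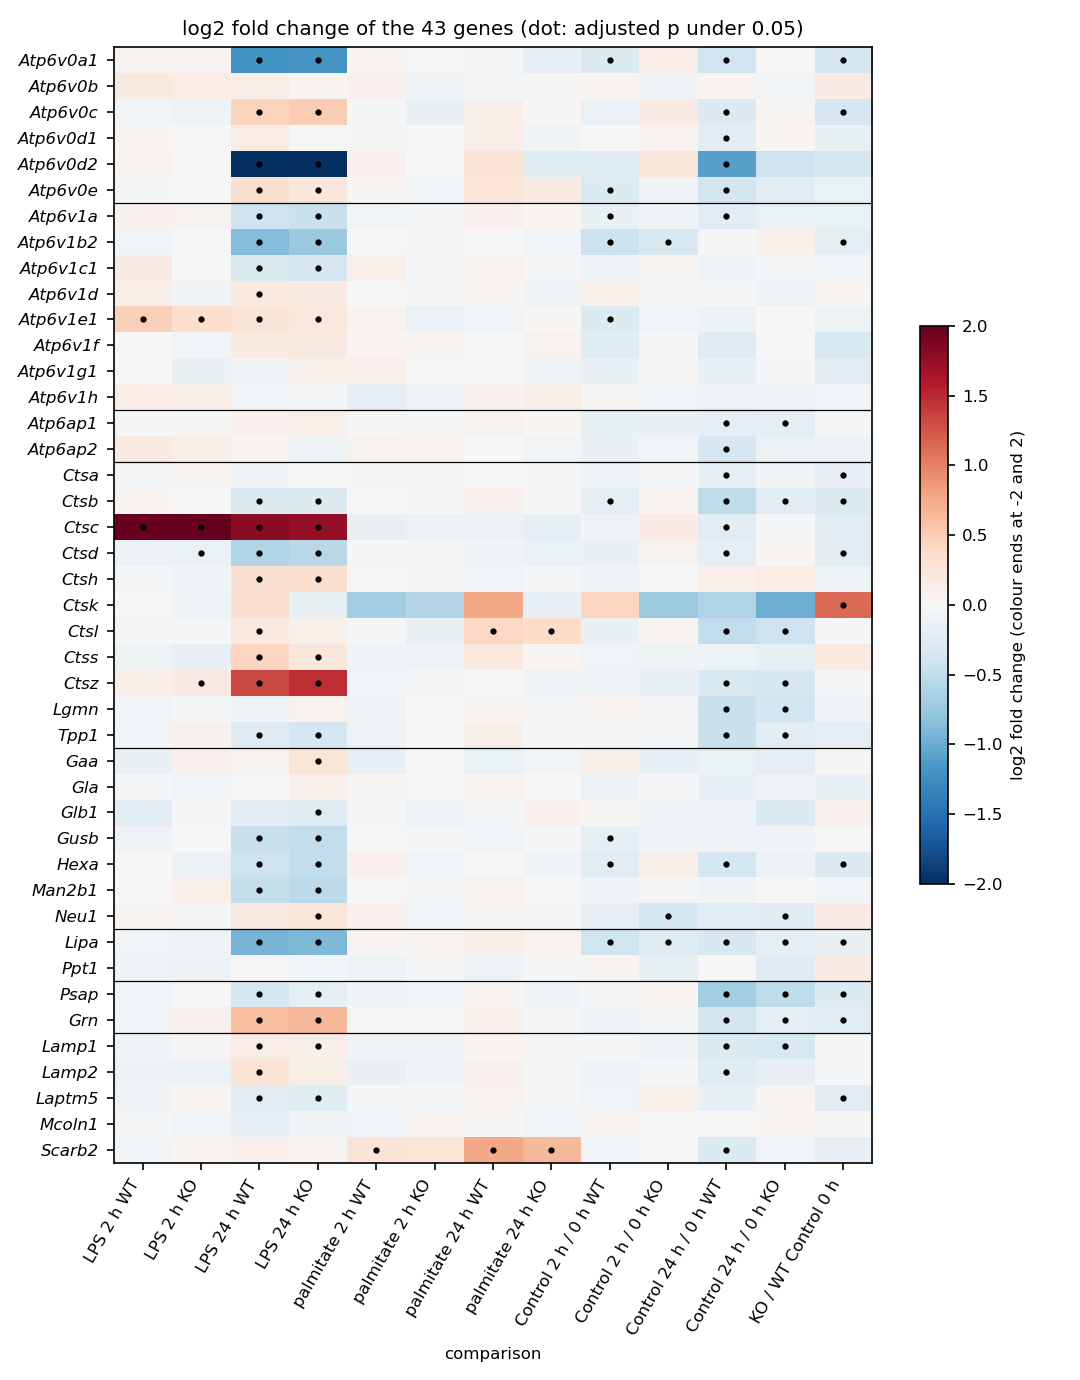
Log2 fold change (colour, ending at -2 and 2) of the 43 genes (rows, grouped by role) in 13 comparisons (columns), with a dot where the adjusted p was under 0.05. The LPS 24 h columns hold the most dots per column, 26 in each genotype. The Control 24 h against 0 h column in WT holds 23, and the palmitate columns at most 2.

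After 24 h of LPS, 12 of the 43 genes rose and 14 fell in WT, and 11 rose and 15 fell in KO. These shares of the genes were 27.9% and 32.6% in WT and 25.6% and 34.9% in KO, where among all genes tested 19.6% rose and 19.9% fell in WT, and 19.9% rose and 21% fell in KO. Genes with many reads can pass the test at smaller changes. The shares over all genes, here and below, were not matched for read number. The median log2 fold change of the set was 0.00 in WT and -0.01 in KO, beside -0.01 and -0.01 over all genes tested. In all, 9 genes rose in both genotypes (Ctsc, Ctsz, Grn, Atp6v0c, Ctss, Ctsh, Atp6v0e, Atp6v1e1 and Lamp1) and 14 fell in both (Atp6v0d2, Atp6v0a1, Lipa, Atp6v1b2, Ctsd, Man2b1, Gusb, Hexa, Atp6v1a, Psap, Ctsb, Atp6v1c1, Tpp1 and Laptm5). How many of all genes tested were called in both genotypes was not counted. Of the macrophage markers, Adgre1, Csf1r, Itgam and Fcgr1 also rose and Mertk and Cd68 fell in both genotypes. The summed level of 8 granulocyte precursor markers was 58.7 to 65.5 CPM in WT at Control 24 h and 339 to 451 CPM at LPS 24 h, and Lcn2 was the 1 marker of that list that rose while Ngp, Ltf and S100a9 fell. In KO the sums were 137 to 219 CPM and 331 to 399 CPM. The part of other cells in these changes was not tested, and in bulk RNA fewer cells of a kind and less RNA per cell cannot be told apart.

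The largest change of any of the 43 genes was in Atp6v0d2 (ENSMUSG00000028238, chromosome 4, 19876841 to 19922605, minus strand), 1 of 2 genes for the d subunit of V0 and the one known from osteoclasts and macrophages. In WT it was at 83.4, 78.7 and 89.3 CPM in Control and 6.67, 3.97 and 3.67 CPM with LPS. In KO the libraries gave 91.9, 114 and 109.9 CPM and 8.95, 8.03 and 7.47 CPM. The groups were far apart in both genotypes, 17.7-fold in WT (log2 fold change -4.14 ± 0.26 (SE), adjusted p = 5.80e-19) with a like fall in KO (log2 fold change -3.70 ± 0.23 (SE), adjusted p = 3.07e-19). Its paralogue Atp6v0d1, the widely expressed d subunit, was at 109, 113 and 117 CPM in WT Control and 122, 123 and 131 CPM in WT LPS and did not pass the test (log2 fold change 0.15 ± 0.07 (SE), adjusted p = 0.0753). Per kilobase the d2 gene stood at 30.8 ± 1.96 CPM (mean ± SD, n = 3) beside 62.9 ± 2.13 for d1 in WT Control, and at 1.76 ± 0.609 beside 70.0 ± 2.87 with LPS.

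Atp6v0a1 (ENSMUSG00000019302, chromosome 11, 101009452 to 101063719, plus strand), an isoform of the large a subunit of V0, also fell. It was at 266, 231 and 243 CPM in WT Control and 108, 100.0 and 113 CPM in WT LPS, and at 253, 248 and 262 and 111, 115 and 111 CPM in KO. The ranges did not overlap (log2 fold change -1.20 ± 0.08 (SE), adjusted p = 1.15e-18 in WT and log2 fold change -1.18 ± 0.08 (SE), adjusted p = 1.62e-18 in KO). Of 3 other a-subunit genes, which are not among the 43, 2 had enough reads to be tested, and both rose. Atp6v0a2 was at 72.1, 78.3 and 70.8 CPM in WT Control and 105, 101 and 92.5 CPM in WT LPS (log2 fold change 0.43 ± 0.09 (SE), adjusted p = 4.48e-05), with a log2 fold change of 0.49 in KO (adjusted p = 3.17e-06). Tcirg1, the a3 subunit of lysosomes and osteoclasts, rose by 0.37 in WT (adjusted p = 3.68e-04) and 0.45 in KO (adjusted p = 1.51e-05) on the log2 scale. Per kilobase, Tcirg1 stood at 46.7 ± 2.00 CPM and Atp6v0a1 at 37.6 ± 2.76 in WT Control, and at 60.3 ± 7.78 and 16.3 ± 1.03 with LPS. The 7 osteoclast markers summed to 133 to 139 CPM in WT Control 24 h and 414 to 555 CPM in WT LPS 24 h, with Mmp9 and Acp5 carrying the rise, while Calcr and Oscar were at 0 in 37 and 39 of the 42 libraries.

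**Figure D2:**
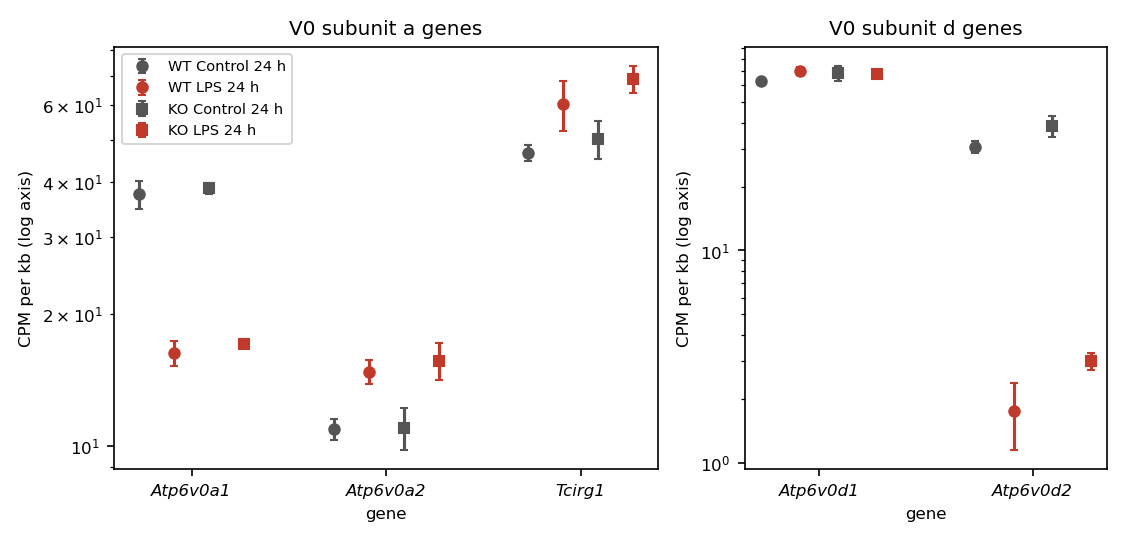
Level per kilobase of exon (CPM per kb, log axis, mean and SD of 3 libraries) of the genes for subunits a and d of V0 at 24 h, circles WT and squares KO, grey Control and red LPS. Atp6v0a1 and Atp6v0d2 were lower with LPS in both genotypes, Atp6v0a2 and Tcirg1 were higher, and Atp6v0d1 passed the test in neither.

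Of the other V0 genes, Atp6v0c, the proteolipid of the rotating ring, rose from 136, 161 and 145 CPM to 193, 212 and 199 CPM in WT (log2 fold change 0.45 ± 0.07 (SE), adjusted p = 1.15e-06) and by 0.51 in KO on the log2 scale. Atp6v0e, a small V0 subunit, rose by 0.33 in WT and 0.23 in KO. Atp6v0b, another proteolipid, did not pass the test (0.14 and 0.03). In V1, the B subunit gene Atp6v1b2 (ENSMUSG00000006273, chromosome 8, 69088646 to 69113711, plus strand) fell from 629, 659 and 612 CPM to 350.2, 334 and 362 CPM in WT (log2 fold change -0.86 ± 0.07 (SE), adjusted p = 5.11e-16) and from 615, 624 and 599 CPM to 358, 351 and 385 CPM in KO (log2 fold change -0.75 ± 0.07 (SE), adjusted p = 5.51e-14). Its partner in the catalytic ring, Atp6v1a, fell less, by log2 fold changes of -0.42 and -0.44, and the C subunit gene Atp6v1c1 had -0.29 and -0.34. The stalk genes Atp6v1e1 and Atp6v1d had positive values, with Atp6v1e1 called in both genotypes (0.26 and 0.21) and Atp6v1d in WT (0.19, adjusted p = 0.0268, against 0.16, adjusted p = 0.0719 in KO). Atp6v1f, Atp6v1g1, Atp6v1h and the accessory genes Atp6ap1 and Atp6ap2 passed the test in neither genotype. Of the 16 V-ATPase genes of this set, 4 were higher and 5 lower in WT (25% and 31.3%) and 3 higher and 5 lower in KO (18.8% and 31.3%), where 19.6% and 19.9% of all genes were called in WT and 19.9% and 21% in KO. Of 9 further V-ATPase genes, 3 had enough reads to be tested, and 2 of them, those for a2 and a3, rose.

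Among the 11 proteases, 5 rose and 3 fell in WT and 4 rose and 3 fell in KO. Of all genes tested, 19.6% rose and 19.9% fell in WT, and 19.9% rose and 21% fell in KO. Ctsc (ENSMUSG00000030560, chromosome 7, 88278085 to 88310888, plus strand), dipeptidyl peptidase I, which activates serine proteases of granules, was at 152, 146 and 148 CPM in WT Control and 553, 456 and 554 CPM in WT LPS, and at 159, 147 and 137 and 479, 520.4 and 491 CPM in KO. It rose 3.51-fold in WT (log2 fold change 1.81 ± 0.08 (SE), adjusted p = 6.44e-26) and 3.37-fold in KO (log2 fold change 1.75 ± 0.08 (SE), adjusted p = 2.16e-25). Ctsz (ENSMUSG00000016256, chromosome 2, 174427493 to 174439039, minus strand), a carboxypeptidase, was at 747, 723 and 702 CPM in WT Control and 1705, 1933 and 1777 CPM in WT LPS. It rose 2.50-fold in WT (log2 fold change 1.32 ± 0.06 (SE), adjusted p = 4.62e-26) and 2.77-fold in KO (log2 fold change 1.47 ± 0.06 (SE), adjusted p = 5.62e-28). Both genes stood above every Control library. Ctss rose from 2972, 2836 and 3133 CPM to 3581, 4459 and 3992 CPM in WT (log2 fold change 0.43 ± 0.08 (SE), adjusted p = 7.46e-06), and Ctsh, an aminopeptidase, had log2 fold changes of 0.31 and 0.33, both called. The 3 proteases that fell were Ctsd, Ctsb and Tpp1. Ctsd (ENSMUSG00000007891, chromosome 7, 142375911 to 142388038, minus strand) was at 9569, 9538 and 9158 CPM in WT Control and 5881, 6484 and 6206 CPM in WT LPS, with no overlap (log2 fold change -0.61 ± 0.05 (SE), adjusted p = 2.21e-14), and the fall in KO was of like size (log2 fold change -0.56 ± 0.05 (SE), adjusted p = 2.93e-13). Ctsb fell by a log2 fold change of -0.29 in WT and -0.28 in KO, and Tpp1, a tripeptidyl peptidase, by -0.26 and -0.35. Ctsl, another cysteine protease, was called in WT (0.19, adjusted p = 0.0326) and not in KO (0.11). Ctsa, Lgmn and Ctsk were not called in either genotype.

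Lipa (ENSMUSG00000024781, chromosome 19, 34492318 to 34527474, minus strand), lysosomal acid lipase, which releases cholesterol and fatty acids from lipoprotein lipids, fell 1.90-fold in WT and 1.86-fold in KO. It was at 1179, 1181 and 1169 CPM in WT Control and 633, 613 and 611 CPM in WT LPS, and at 1146, 1179.6 and 1174 CPM and 635, 603 and 647 CPM in KO. The spread within each group was small beside the difference (log2 fold change -0.93 ± 0.05 (SE), adjusted p = 4.77e-22 in WT and log2 fold change -0.89 ± 0.05 (SE), adjusted p = 1.90e-21 in KO). Ppt1, which removes fatty acids from modified proteins, was not called (-0.00 and -0.05). Its exons overlap the more abundant Cap1 on the other strand (mean counts 678 for Ppt1 and 5661 for Cap1), as those of Ctsa overlap Pltp, and with the strand setting of the counting not given their counts are uncertain. Of the 7 glycosidases, 3 fell in both genotypes, where 19.9% of all genes tested fell in WT and 21% in KO. Man2b1, lysosomal alpha-mannosidase, had log2 fold changes of -0.48 and -0.52, Gusb, beta-glucuronidase, -0.45 and -0.50, and Hexa, the alpha chain of beta-hexosaminidase, -0.41 and -0.49. In KO, Glb1, beta-galactosidase, was called lower (-0.26, against -0.21 in WT), and Neu1, a sialidase (0.24 against 0.18), and Gaa, acid alpha-glucosidase (0.24 against 0.06), were called higher. The Neu1 call was lost without library 2 of KO LPS 24 h (0.19). Glb1 shares exon sequence with Tmppe, and the difference between the genotypes was not past the threshold for any of these genes. Gla was called in neither.

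Psap and Grn moved apart. Grn (ENSMUSG00000034708, chromosome 11, 102430315 to 102437048, plus strand), progranulin, a secreted and lysosomal glycoprotein, was at 1563, 1556 and 1498 CPM in WT Control and 2285, 2479 and 2316 CPM in WT LPS, all LPS libraries lying above (log2 fold change 0.62 ± 0.06 (SE), adjusted p = 7.51e-13), and rose by 0.66 in KO on the log2 scale. Psap was at 7318, 7229.6 and 6571 CPM and 5332, 5678 and 5608 CPM, lower with LPS at log2 fold changes of -0.35 in WT and -0.18 in KO (adjusted p = 1.65e-05 and 0.0186). Of the membrane proteins, Lamp1, the main glycoprotein of the lysosomal membrane, rose by 0.15 and 0.13, and Lamp2 was called in WT (0.27) and not in KO (0.11). Laptm5, a membrane protein of blood cell lysosomes, had -0.20 and -0.24, both called lower. Mcoln1 and Scarb2 did not pass the test in either genotype.

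**Figure D3:**
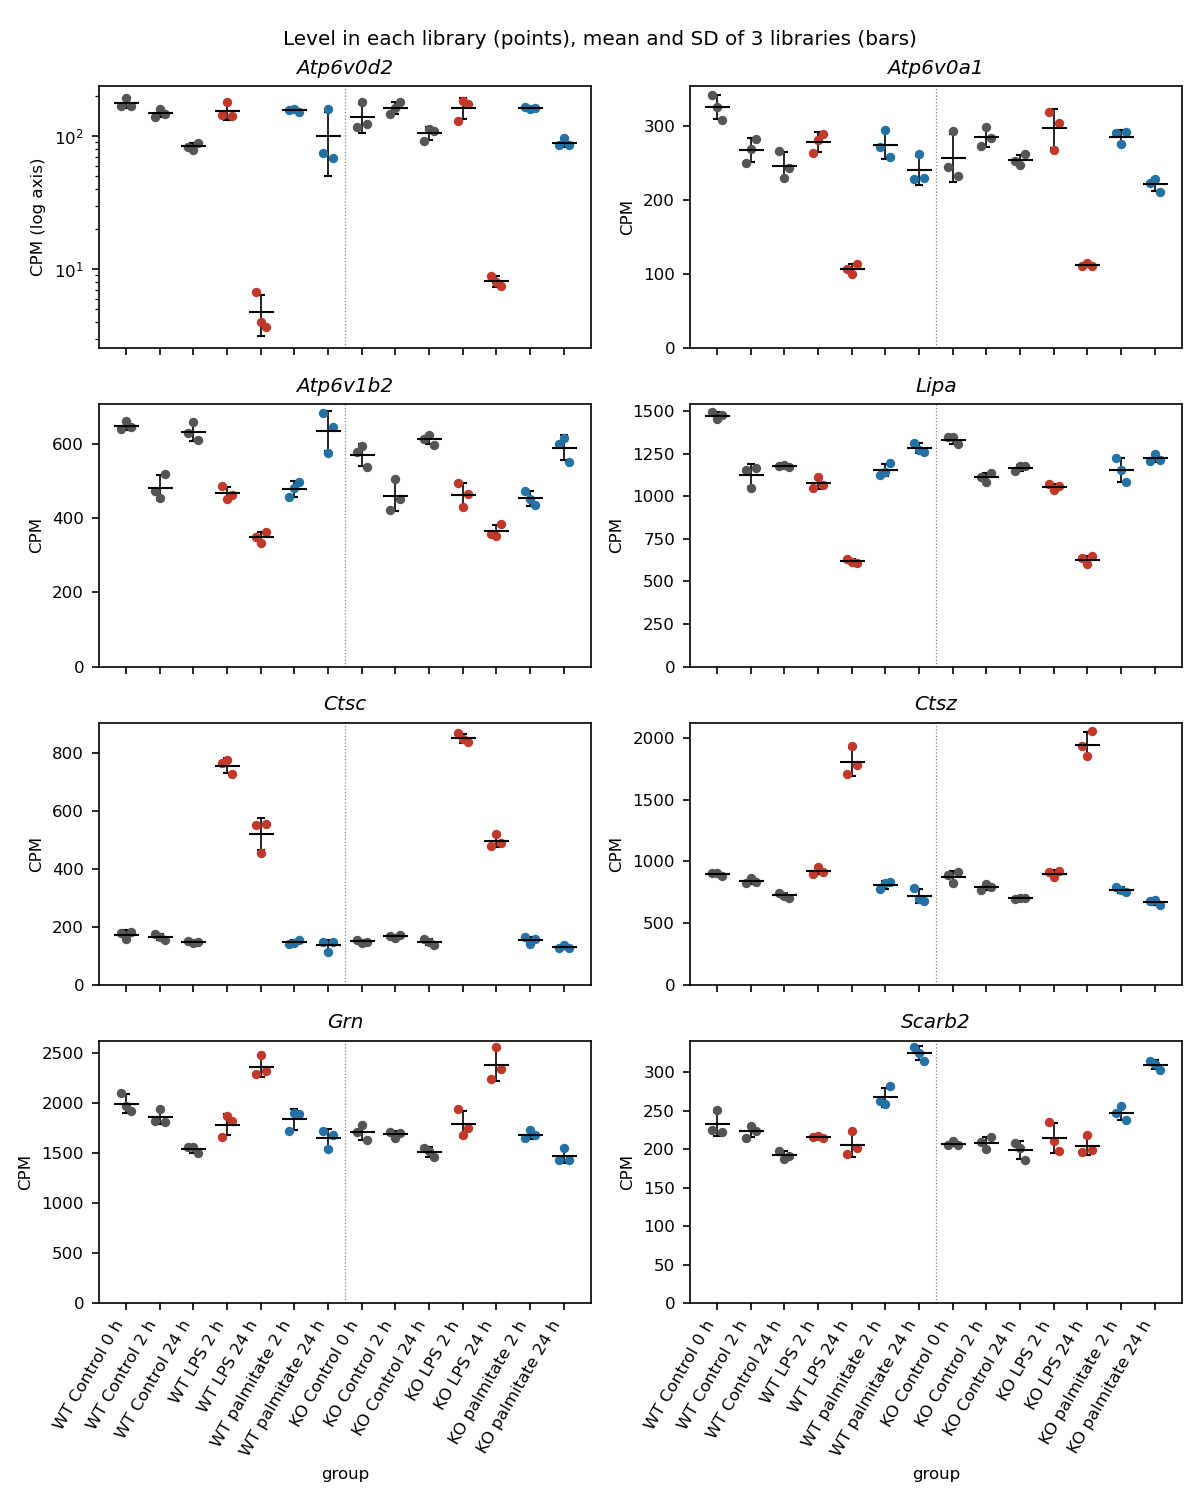
CPM of 8 genes in each library (points, grey Control, red LPS, blue palmitate), with mean and SD of 3 libraries, by group (WT left, KO right of the dotted line), with a log axis for Atp6v0d2. LPS at 24 h lowered Atp6v0d2, Atp6v0a1, Atp6v1b2 and Lipa and raised Ctsz and Grn, Ctsc was raised at both times, and Scarb2 was highest with palmitate at 24 h.

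At 2 h of LPS the lysosomal genes had hardly moved, although 14% of all genes tested rose and 9.1% fell in WT (14.7% and 9.16% in KO). Of the 43 genes, 2 rose and none fell in WT, and 3 rose and 1 fell in KO. Ctsc was already at its highest, with 766, 778 and 728 CPM in WT against 174, 166 and 156 CPM in Control (log2 fold change 2.20 ± 0.08 (SE), adjusted p = 2.32e-29), and with 868, 848 and 837 CPM against 167, 163 and 172 CPM in KO (log2 fold change 2.34 ± 0.08 (SE), adjusted p = 1.52e-30). Atp6v1e1 was at 156, 149.9 and 158 CPM in WT Control and 226, 207 and 215 CPM in WT LPS (log2 fold change 0.48 ± 0.09 (SE), adjusted p = 3.29e-05). In KO the LPS libraries of Atp6v1e1 stood at 149.9, 239 and 246 CPM, the first of them below every Control library (165, 170.1 and 168 CPM), and the log2 fold change was 0.36 (adjusted p = 0.00183). Without library 1 it was 0.52, and without library 3 it was 0.23 and no longer called. When only the compared libraries were fitted it was 0.34 and also not called. Ctsz (0.19) and Ctsd (-0.14) were also called in KO. Ctsz lost the call without library 1 of KO Control 2 h (0.15) or library 3 of KO LPS 2 h (0.16), and when all genes with a count were fitted (0.16). Ctsd lost its call without library 3 of KO Control 2 h (-0.12) and without library 1 (-0.12) or library 2 (-0.14) of KO LPS 2 h. On the compared libraries alone Ctsd was at -0.15 and not called. In WT the count was 4 without library 2 of WT LPS 2 h, and in KO it was 2 when only the compared libraries were fitted. DESeq2 called 2 and 4 genes.

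The LPS effect at 24 h was tested against that at 2 h within each genotype, comparisons that use 4 groups each. The difference was called for 21 of the 43 genes within each genotype, 8 higher and 13 lower in WT and 7 higher and 14 lower in KO. Of these, 6 higher and 12 lower were shared, and the number shared among all genes was not counted. Among all genes tested, 14.5% were called higher and 18.1% lower in WT, and 14.3% and 19% in KO. Atp6v0d2 shows the contrast, with 139, 159 and 147 CPM in WT Control and 144, 181 and 141 CPM in WT LPS at 2 h, groups that overlapped, before the loss at 24 h. For Ctsc the effect was smaller at 24 h than at 2 h (difference in log2 fold change -0.38 in WT and -0.59 in KO).

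Palmitate moved few of these genes. At 24 h, Scarb2 and Ctsl rose in both genotypes, 2 of 43, and none fell, beside 0.671% of all genes rising and 0.181% falling in WT and 0.637% and 0.241% in KO. Scarb2 (ENSMUSG00000029426, chromosome 5, 92441314 to 92506833, minus strand), LIMP-2, is a lysosomal membrane protein that carries glucocerebrosidase to the lysosome. It was at 198, 188 and 191 CPM in WT Control and 333, 325 and 315 CPM in WT palmitate, and at 208, 202 and 186 and 315, 310.4 and 303 CPM in KO. Every palmitate library lay above every Control library (log2 fold change 0.76 ± 0.06 (SE), adjusted p = 9.09e-13 in WT and log2 fold change 0.64 ± 0.06 (SE), adjusted p = 2.01e-10 in KO). Ctsl was at 603, 576 and 619 CPM in WT Control and 737, 949 and 719.9 CPM in WT palmitate (log2 fold change 0.42 ± 0.07 (SE), adjusted p = 3.19e-04), and at 617, 624 and 632 and 778, 807 and 823 CPM in KO (log2 fold change 0.36 ± 0.07 (SE), adjusted p = 0.0026). Library 2 of WT palmitate 24 h was the highest for Ctsl and also for Atp6v0d2 (74.7, 160.3 and 68.7 CPM), and without it or another library the WT change of Ctsl ranged down to 0.28 and stayed called. At 2 h, Scarb2 was the 1 gene called in WT (log2 fold change 0.26 ± 0.06 (SE), adjusted p = 0.0445), where 0.275% of all genes were called. It stood at 215, 230.1 and 224 CPM in Control and 263, 258 and 281 CPM with palmitate, without overlap, but the call was lost in 8 of 10 alternative fits. In KO its log2 fold change was 0.25 (adjusted p = 0.143), and edgeR and DESeq2 called none of the 43 genes there (2 at an unadjusted p under 0.05, beside 536 of the 11624 genes at that threshold). Calls at the adjusted p made up 0.112% of all genes. Palmitate and LPS were compared with the same Control libraries at each time. The lipid hydrolases Lipa (0.12 and 0.07 at 24 h) and Ppt1 (-0.07 and -0.03) were not called.

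**Figure D4:**
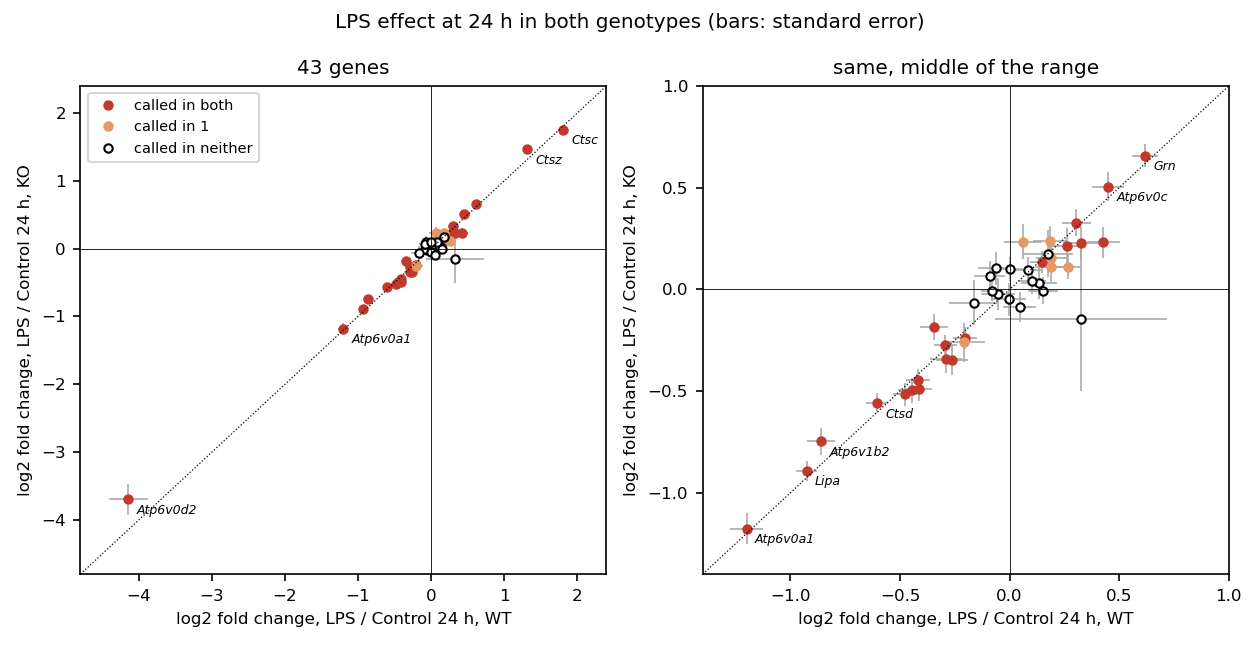
Log2 fold change of LPS against Control at 24 h in WT (horizontal) and KO (vertical) for the 43 genes with standard errors, all genes on the left and the middle of the range on the right, filled red where called in both genotypes. The genes lie along the dotted line of equal effect, from Atp6v0d2 at -4.14 and -3.70 to Ctsc at 1.81 and 1.75.

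In Control cells many of the genes were lower after 24 h in culture. From 0 to 24 h, 23 of the 43 fell in WT and 11 in KO and none rose, where 6.42% and 4.46% of all genes fell and 5.72% and 3.71% rose. The median log2 fold change of the set was -0.22 in WT and -0.11 in KO, beside 0.00 and 0.01 over all genes tested, and 41 and 34 of the 43 values were negative. Of the 23 in WT and the 11 in KO, 10 were shared (Psap, Ctsb, Ctsl, Lgmn, Tpp1, Ctsz, Lamp1, Grn, Lipa and Atp6ap1). The number shared among all genes tested was not counted. Psap was at 11183, 11964 and 11128 CPM at 0 h and 7318, 7229.6 and 6571 CPM at 24 h in WT, and at 8727, 10579 and 8999 and 6489, 6858 and 6557 CPM in KO, without overlap (log2 fold change -0.70 ± 0.06 (SE), adjusted p = 2.20e-11 in WT and log2 fold change -0.51 ± 0.06 (SE), adjusted p = 9.92e-08 in KO). Ctsb fell from 11734, 12134 and 11396 CPM to 8411, 8224 and 8294 CPM in WT (log2 fold change -0.50 ± 0.05 (SE), adjusted p = 3.85e-10) with a log2 fold change of -0.21 in KO. Lgmn, an asparagine-specific protease that processes cathepsins, had -0.44 and -0.38, and Ctsl -0.49 and -0.42. In WT, Atp6v0d2 fell from 169, 194 and 169 CPM to 83.4, 78.7 and 89.3 CPM (log2 fold change -1.08 ± 0.16 (SE), adjusted p = 2.45e-06), so that the Control level against which LPS was read at 24 h was itself lower than at 0 h. In KO the starting libraries of Atp6v0d2 were spread (118, 181 and 123 CPM) and the change was not called (-0.41). In KO the count was 7 without library 2 or library 3 of KO Control 24 h. Granulocyte precursor markers summed to 50.8 to 61.3 CPM at 0 h and 58.7 to 65.5 CPM at 24 h in WT, and to 81.5 to 87.7 and 137 to 219 CPM in KO. Of the 7 macrophage markers, Cd68 (-0.60 and -0.21) and Fcgr1 (-0.60 and -0.74) were lower and Itgam (0.33 and 0.24) was higher at 24 h in both genotypes. Adgre1 was lower in WT (-0.27), and in KO Lyz2 was lower (-0.28) and Mertk higher (0.37). The part of these markers in the falls was not tested.

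At 2 h fewer of the genes were called in Control, with 9 of the 43 lower in WT and 3 in KO and none higher. Of all genes tested, 5.85% fell in WT and 5.59% in KO, and 8.41% and 6.5% rose. The KO share of the set was close to that of all genes. Neu1 fell in KO alone (log2 fold change -0.35, adjusted p = 8.00e-04). Atp6v1b2 and Lipa fell in both. Atp6v1b2 was at 640.4, 661 and 646 CPM at 0 h, 474, 454 and 519 CPM at 2 h and 629, 659 and 612 CPM at 24 h in WT, low at 2 h and back within the 0 h range in 1 of 3 libraries at 24 h. The 2 h change was log2 fold change -0.43 ± 0.06 (SE), adjusted p = 1.13e-06 in WT and log2 fold change -0.31 ± 0.06 (SE), adjusted p = 4.40e-04 in KO. Lipa was at 1493, 1451 and 1477 CPM at 0 h and 1153, 1046 and 1165 CPM at 2 h in WT (log2 fold change -0.39 ± 0.05 (SE), adjusted p = 7.97e-09) with -0.26 in KO, also called. Both times were compared with the same 0 h libraries. The WT count was 5 without library 2 of WT Control 0 h, 4 without library 1 and 5 without library 2 of WT Control 2 h, and the KO count was 6 without library 2 of KO Control 0 h.

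**Figure D5:**
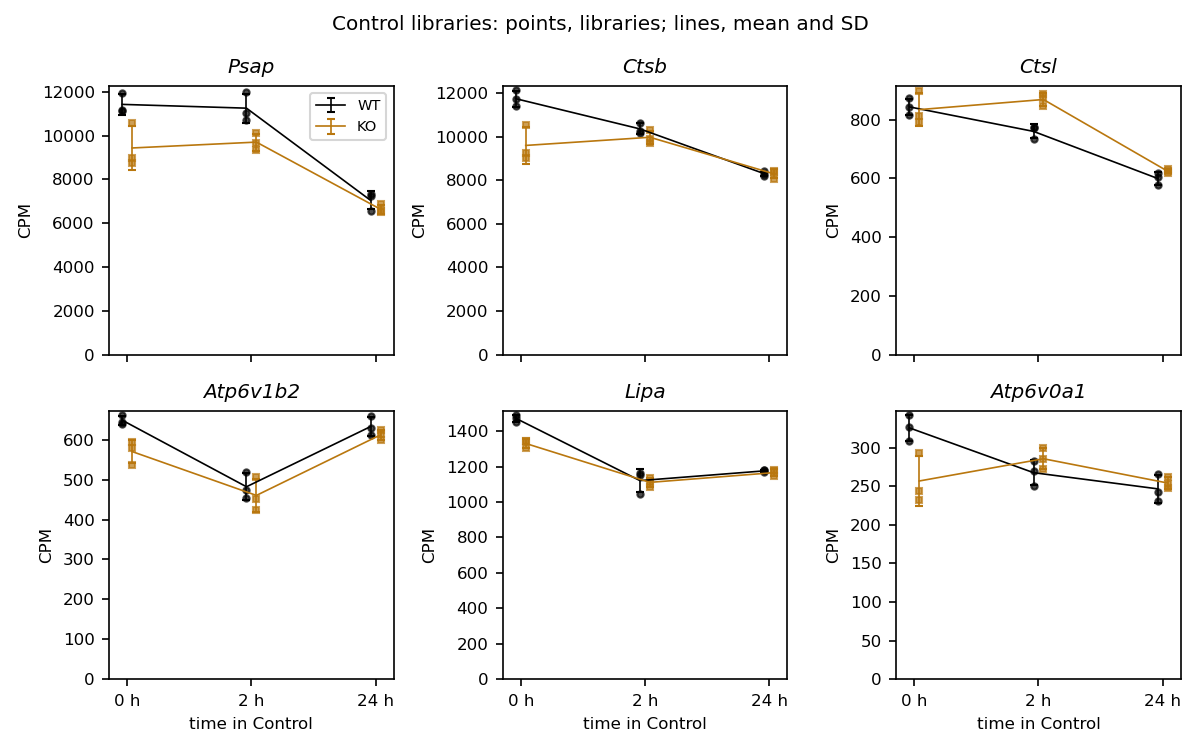
CPM of 6 genes in Control libraries at 0, 2 and 24 h (equally spaced on the horizontal axis), WT black circles and KO brown squares, with lines through the means and bars of 1 SD of 3 libraries. Psap, Ctsb and Ctsl were lowest at 24 h, and Atp6v1b2 was lowest at 2 h.

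Between the genotypes, 12 of the 43 genes differed at 0 h and at most 1 at any later time. Whether the genotype difference itself changed with time was not tested. The 0 h comparison used the same WT and KO libraries as the Control comparisons over time, so the 2 results are not independent. In Control 0 h libraries, 11 were lower and 1 higher in KO (25.6% and 2.33%), where 6.06% of all genes were lower and 6.4% higher. The median log2 fold change was -0.12 for the set, beside 0.00 over all genes. The differences were small, 1.27-fold at most among the 11. Atp6v0a1 was at 342, 327 and 309 CPM in WT and 245, 293 and 233 CPM in KO (log2 fold change -0.34 ± 0.07 (SE), adjusted p = 8.94e-04). Ctsb was at 11734, 12134 and 11396 CPM in WT and 9009, 10563 and 9248 CPM in KO (log2 fold change -0.29 ± 0.05 (SE), adjusted p = 8.14e-05). The 3 libraries of each genotype did not overlap for either gene. Atp6v0c (-0.33), Psap (-0.28), Hexa (-0.27), Laptm5 (-0.23), Grn (-0.22), Ctsd (-0.21), Atp6v1b2 (-0.19), Ctsa (-0.17) and Lipa (-0.15) made up the rest. Psap lost its call without library 1 of KO Control 0 h (-0.21). The count was 7 without library 1 and 7 without library 3 of KO Control 0 h. It was 1 by the cut-offs of the study's rule, a change of more than 1 on the log2 scale at an unadjusted p under 0.05. These cut-offs were applied here to the edgeR values, whereas the study used DESeq2. The gene that was higher was Ctsk, at 7.60, 3.32 and 4.89 CPM in WT and 9.81, 8.90 and 15.7 CPM in KO (log2 fold change 1.13 ± 0.33 (SE), adjusted p = 0.0171), and this call was lost without library 3 of KO (0.85), library 2 of WT (0.89) or library 3 of WT (1.08).

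Markers of other cells moved with this comparison. The 5 fibroblast markers summed to 0.529 to 0.905 CPM in WT Control 0 h and 42.1 to 69.3 CPM in KO Control 0 h, with Col1a1, Col1a2 and Col3a1 called higher and Dcn at 0 in 36 of 42 libraries. Granulocyte precursor markers summed to 50.8 to 61.3 CPM in WT and 81.5 to 87.7 CPM in KO, with Ltf called higher. Of the 7 macrophage markers, Adgre1, Cd68, Mertk and Lyz2 were lower and Csf1r was higher in KO. Their part in the lower lysosomal levels and in the higher Ctsk was not tested.

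In the other 6 genotype comparisons, 1 of the 43 genes was called once, Atp6v1d at LPS 2 h. It was at 145, 139 and 141 CPM in WT and 111, 111 and 123 CPM in KO (log2 fold change -0.30 ± 0.07 (SE), adjusted p = 0.0479), a call that 8 of 10 alternative fits lost, among them the fit without library 1 of KO LPS 2 h (-0.28). The shares of all genes called were 0.49% at Control 2 h, 0.146% at palmitate 2 h, 0.465% at LPS 2 h, 0.12% at Control 24 h, 0.0688% at palmitate 24 h and 0.146% at LPS 24 h. At an unadjusted p under 0.05 the numbers among the 43 were 6 at Control 2 h, 5 at palmitate 2 h, 0 at Control 24 h, 7 at palmitate 24 h and 2 at LPS 24 h, with none called there by edgeR or DESeq2. At the same unadjusted threshold 1172, 1032, 587, 891 and 1056 of the 11624 genes passed in these 5 comparisons. A fit on the Control 2 h libraries alone called 4 there.

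Whether the genotype changed the response itself was tested by interaction terms for LPS and palmitate at each time, and edgeR and DESeq2 called none of the 43 genes in any of the 4 (0, 0, 0 and 2 at an unadjusted p under 0.05 for LPS 2 h, LPS 24 h, palmitate 2 h and palmitate 24 h). At that unadjusted threshold 810, 628, 486 and 411 of the 11624 genes passed. Over all genes the shares called at the adjusted p were 0%, 0.0086%, 0% and 0%. For Atp6v0d2 the LPS effect at 24 h in KO minus that in WT was 0.45 (approximate 95% interval -0.37 to 1.26), for Ctsc it was -0.06 (-0.27 to 0.15) and for Ctsz 0.15 (0.00 to 0.30, adjusted p = 0.93). For Scarb2 the palmitate effect at 24 h differed by -0.12 (-0.29 to 0.06). The intervals bound how far the genotypes could differ and do not show equal responses.

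Genes around this set were followed in lists drawn up by function. Of 36 other lysosomal genes, 10 rose and 15 fell with LPS at 24 h in WT and 8 rose and 12 fell in KO. Among all genes tested 19.6% rose and 19.9% fell in WT at 24 h and 19.9% and 21% in KO, which also applies to the other lists at that time. Acp5, tartrate-resistant acid phosphatase, was at 27.5, 35.1 and 30.4 CPM in WT Control and 117, 145 and 116 CPM in WT LPS (log2 fold change 2.01 ± 0.10 (SE), adjusted p = 2.94e-22). Acp2, lysosomal acid phosphatase, was at 141, 131 and 124 CPM and 425, 404 and 464 CPM (log2 fold change 1.71 ± 0.07 (SE), adjusted p = 2.86e-27). Npc2, which binds cholesterol in the lysosome, rose by 0.94 in WT and 0.86 in KO on the log2 scale. Laptm4b, a lysosomal membrane protein (-1.32), Slc17a5, the sialic acid exporter (-1.08), and Ctsf, a further cathepsin (-1.03), fell most in WT. Of 7 genes for delivery to lysosomes, 3 rose and 2 fell in each genotype. Sort1, sortilin, a sorting receptor, was at 223, 232 and 229 CPM in WT Control and 54.3, 95.2 and 52.4 CPM in WT LPS (log2 fold change -1.77 ± 0.10 (SE), adjusted p = 3.28e-20), and with palmitate it rose by 0.42 in WT and 0.43 in KO. M6pr, a mannose 6-phosphate receptor, rose by 0.64 and 0.61.

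Of 16 regulators of lysosomal genes and lysosomal nutrient sensing, 15 were tested, and 4 rose and 4 fell after 2 h of LPS in WT and 3 rose and 4 fell in KO, where 14% of all genes rose and 9.1% fell in WT and 14.7% and 9.16% in KO. Tfec, a relative of TFEB, was at 9.68, 8.77 and 8.15 CPM in WT Control and 75.1, 71.5 and 79.1 CPM in WT LPS, with no overlap (log2 fold change 3.09 ± 0.18 (SE), adjusted p = 3.83e-20), and at 24 h it was at 11.1, 11.7 and 7.96 CPM. The LPS effect on Tfec at 24 h minus that at 2 h was -3.61 in WT on the log2 scale, larger in size than the 2 h rise. Tfeb itself was lower at 2 h (-0.59 in WT and -0.87 in KO), as was Flcn, folliculin, which acts on the control of TFEB by nutrients (-0.93 and -1.12). At 24 h, 1 rose and 9 fell in WT and 1 rose and 6 fell in KO, with Rragd, a small GTPase of the lysosomal surface, changing most (-1.62 and -1.51). Of 6 inhibitors of cathepsins, 5 were tested, and 3 rose and 1 fell at LPS 24 h in each genotype. Cst7, cystatin F, an inhibitor of cathepsin C and related proteases, was at 0.281, 0.857 and 0.437 CPM in WT Control and 12.2, 13.1 and 14.2 CPM in WT LPS, and was at 0 in the 3 KO Control libraries and at 18.2, 19.6 and 14.9 CPM in KO LPS. Cstb rose by 0.78 and 0.73, and Serpinb6a fell by log2 fold changes of -1.08 and -0.96.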

How the data were processed

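Per the labels and the study's methods, 42 libraries were made from total RNA of BMDM with the SMARTer Stranded Total RNA-Seq Pico v2 kit, in which cDNA of ribosomal RNA is removed. The authors deposited raw read counts per Ensembl gene, after trimming and alignment to mm10 (the submitters' processing notes name fastp 0.19.11 and STAR 2.7.3a, and list mm9 beside mm10). The annotation release and the strand setting of the counting are not given in the sources used here. Library totals ran from 2848793 to 7743442 counts.

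Column names give the group of each library and no replicate number, and 0 value columns were left unused. Genes were filtered with filterByExpr (11624 kept), scaled by TMM, and fitted with 1 mean for each of 14 groups over all 42 libraries in edgeR 4.0.16 (R 4.3.3) by the quasi-likelihood F test, with Benjamini-Hochberg adjustment over all genes tested and calls at an adjusted p under 0.05. Standard errors are the log2 fold change divided by the square root of F, and intervals are 1.96 standard errors on each side. Alternatives were DESeq2 1.42.0, RLE size factors, all genes with a count, only the libraries compared, the study's rule of unadjusted p with a log2 fold change over 1, and each library left out in turn. The cut-offs of the study's rule were applied to the edgeR values. Replicate pairs differed beyond counting noise (chi-square per degree of freedom 1.93 to 9.32 over 42 pairs). The scripts were tested on simulated data.

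The 43 genes, their roles and the other lists were chosen with earlier results of these data known. For each comparison and direction, at most 6 called members with the largest log2 fold change were named, with the member of smallest adjusted p where a role had none, and every member was given at least once. Outside the 43, the genes named were Irf5, Lyz2, markers, and at most 3 called genes per list and direction. The names of further markers, further called members and the a-subunit values set side by side were chosen after their values were seen. Marker lists covered macrophages, osteoclasts, dendritic cells, fibroblasts, granulocyte precursors, erythroid cells and lymphocytes (B cells in one list, T or NK cells in another).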

Additional observations from a re-analysis of the deposited data

Results flagged for a closer look

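For the genes in this paragraph the effect of LPS differed between 2 h and 24 h by a test of the difference itself (edgeR, adjusted p under 0.05), and the values are the log2 fold change at 24 h minus that at 2 h. In WT the difference was 1.18 for Ctsz, 0.67 for Grn, 0.53 for Ctss, 0.51 for Atp6v0c, 0.38 for Lamp2 and 0.35 for Atp6v0e. On the lower side in WT it was -4.21 for Atp6v0d2, -1.26 for Atp6v0a1, -0.87 for Lipa, -0.81 for Atp6v1b2, -0.51 for Atp6v1a and -0.50 for Ctsd. In KO it was 1.28 for Ctsz, 0.60 for Atp6v0c, 0.57 for Grn, 0.40 for Ctsh, 0.39 for Ctss and 0.28 for Neu1. On the lower side in KO it was -3.70 for Atp6v0d2, -1.23 for Atp6v0a1, -0.82 for Lipa, -0.75 for Atp6v1b2, -0.62 for Man2b1 and -0.59 for Ctsc. Ctsc stood apart from the others, since it was raised at both times and less so at 24 h. The calls of Neu1 in KO and Atp6v0e in WT were lost in 9 and 3 of their alternatives.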

How the results depend on the processing

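No paired analysis was possible because the columns of the count table carry group names and no replicate numbers. Of 1024 alternative values for the 88 named gene results, 967 kept direction and call, 57 lost the call and 0 reversed, and 260 of 293 counts of called genes stayed within 1.5 times. RLE factors shifted the median gene by at most 0.00833 (log2). The counts that moved further were these. For LPS at 2 h, the count was 2 in KO on the compared libraries alone, and 2 to 4 in WT with a library left out. For palmitate at 2 h, the WT count of 1 became 0 with RLE factors, with all genes and with any library left out, and the KO count of 0 became 1 on the compared libraries alone. Between genotypes, Control 0 h gave 1 by the rule of the study and 7 to 12 with a library left out, Control 2 h gave 2 with all genes and 4 on the compared libraries alone, Control 24 h gave 1 on those alone, LPS 24 h gave 1 with all genes, and LPS 2 h gave 0 with RLE factors, all genes, the compared libraries alone or the rule of the study, and 0 to 1 with a library left out. For Control over time, leaving out a library gave 4 to 7 at 2 h in WT, 3 to 6 at 2 h in KO and 7 to 12 at 24 h in KO. Apart from these constructions, the cause was not tested. With 3 libraries a group, small differences such as those at 0 h depend on single libraries, and Ctsk, at a few CPM, is limited by depth.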
